A study of Pinus elliottii with 16 samples.

Results

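The comparison set all 8 libraries of paste-treated slash pine cambium against all 8 libraries of control cambium, with the day of sampling as a covariate. It thus used the 16 libraries of the whole series. The labels set the members of each arm, though the comparison was chosen with earlier results of these data known. The paste libraries were 4 from day 5 and 4 from day 15, and the control libraries were 4 from each of the same days. All trees were slash pine (Pinus elliottii), 16 years old and tapped for resin every fortnight with conventional paste over the year before. In the paste groups the bark was stripped and the fresh wound was streaked with a commercial resin stimulant that held 3% ethephon (2-chloroethylphosphonic acid) and 20% sulfuric acid by volume, with rice husk powder among its inert components. In the control groups the bark was stripped and no paste was given. RNA came from the vascular cambium slightly above the wound on day 5 or day 15 in both treatments. No group received ethephon or the acid alone, so their effects cannot be told apart, and no group of unwounded trees was analysed here.

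The vascular cambium is the dividing layer between wood and bark, and its derivatives form the ducts in which pines make and store resin, a mixture of terpenes that seals wounds and repels insects and fungi. Ethephon breaks down inside plant tissue and releases ethylene, a hormone that takes part in the wound response of conifers and in the formation of resin ducts. Sulfuric acid in such pastes damages tissue at the wound and keeps resin flowing. The files used here pair no identifier with a gene name or description. Terpene synthases, ethylene response genes and markers of cambium, xylem or phloem could therefore not be looked up, and the tissue label was not checked against markers. Features are given by their deposited identifiers: names that start with PITA or PITAhm, and names of assembled transcripts.

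Levels are normalized fragment counts, that is, the fragments the authors estimated for a feature after scaling for library size. The libraries held an estimated 3934755 to 5175320 fragments with paste and 3323971 to 5203943 in controls, and 6351 to 6871 features were above 0 with paste, against 6532 to 6901 in controls. Of 8949 deposited features, 5856 were tested, those at 10 or above in 4 or more libraries. On the first principal component, with 44.5% of the variance, the paste libraries did not lie together. Replicates 2 to 4 of paste at day 5, with replicate 3 of paste at day 15, scored 36.5 to 106. The other 4 paste libraries lay among the controls, which scored -66.6 to 12.7: replicate 1 of day 5 at -6.69, and replicates 1, 2 and 4 of day 15 at -5.86, -47.9 and -47.3. The second component, with 13.2% of the variance, held the paste libraries between -24.2 and 50.0 and the control libraries between -52.3 and 3.83. Correlated over features, paste day 15 replicate 3 averaged 0.901 with paste at day 5, against 0.763 with the rest of its group. Paste day 15 replicates 2 and 4 averaged 0.854 and 0.862 with the rest of their group, and 0.918 and 0.914 with the controls of day 15. Their group averages were lowered by replicate 3, with which they correlated at 0.727 and 0.736. With each other, replicates 2 and 4 correlated at 0.94.

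**Figure D1:**
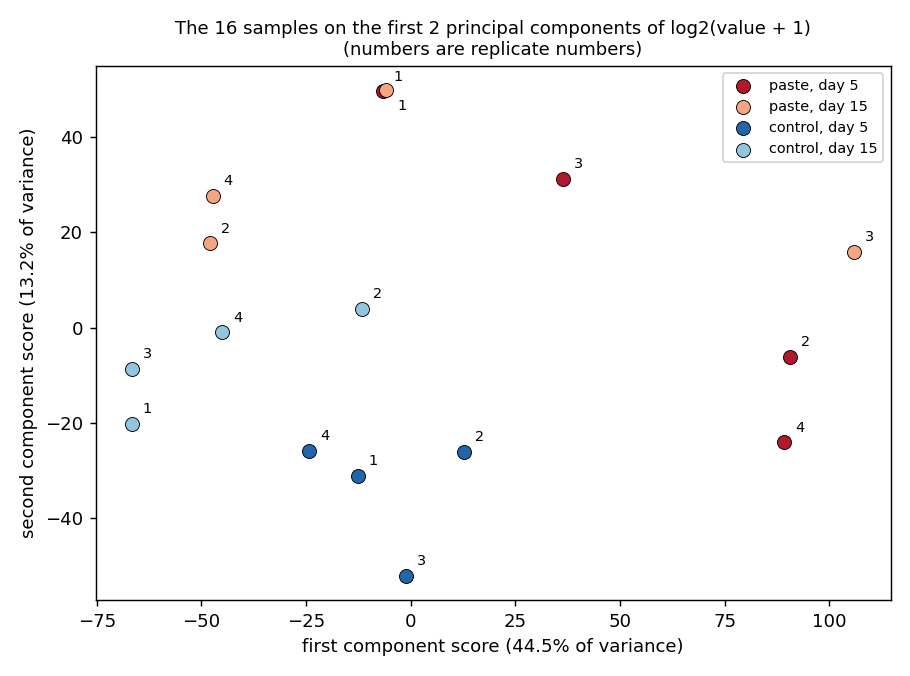
Scores of the 16 libraries on the first (x) and second (y) principal component of log2(value + 1) over the 5856 tested features, in arbitrary units; each point is a library, coloured by treatment and day and marked with its replicate number. Paste day 5 replicate 1 and paste day 15 replicate 1 lie on each other, and these and paste day 15 replicates 2 and 4 lie within the range of the controls on the first component.

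Replicate 1 of paste at day 5 and replicate 1 of paste at day 15 were nearly the same library, with a correlation of 0.986. The squared difference of their fragments was 1.71 times what counting error gives, against 10.8 to 78.5 times for the other 119 pairs. Both stand in the paste arm, where they count as 2 of 8 libraries, so the counts are also given without one of them. The control libraries showed another likeness over the days. The deviation of a day 15 control from its group mean correlated best with the day 5 control of the same replicate number in all 4 cases, at 0.245 to 0.559, while pairs of unlike numbers lay between -0.345 and 0.119. In the paste arm only replicate 1, the near-identical pair, correlated best with its own number. The labels speak of 4 randomly chosen trees and do not tie a library to a tree, so the 8 libraries of an arm may not come from 8 trees, and p-values measure the spread between these libraries.

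Paste changed 354 of the 5856 features over both days, 6.05% of those tested (limma on log2(value + 1), Benjamini-Hochberg adjusted p below 0.05, n = 8 per arm). Of these, 171 were higher with paste, 2.92% of features, and 183 were lower, 3.12%. The log2 change of the 171 higher features had its median at 1.49, with rises of 1.27-fold to 49.8-fold. That of the 183 lower features had its median at -1.18, with falls of 1.29-fold to 51.5-fold. Over all tested features the median log2 change was -0.04. More than 4-fold changes were seen in 68 of the higher and 57 of the lower features, and more than 8-fold changes in 32 and 23. An unadjusted p below 0.05 was reached by 1601 features. In bulk tissue, fewer cells that express a feature and less RNA of it per cell cannot be told apart. With each library scaled to its total value the split moved towards rises, to 180 higher and 124 lower.

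**Figure D2:**
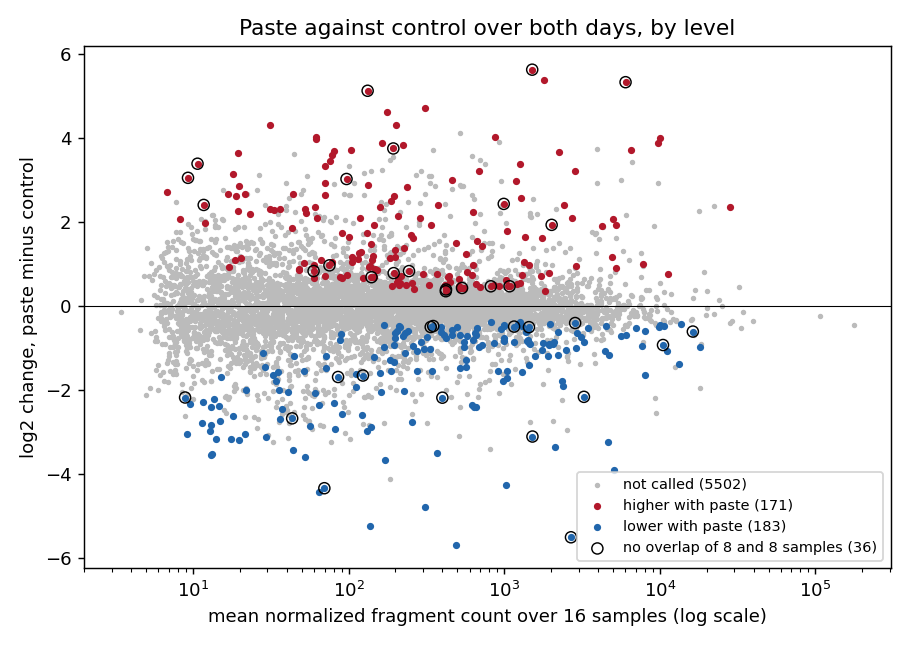
Log2 change with paste (paste minus control, y) against the mean normalized fragment count over the 16 libraries (x, log scale); each point is 1 of the 5856 tested features, coloured by its call, and rings mark features in which the 8 paste and 8 control libraries did not overlap. Called features lie at all levels, and calls with small changes are seen mostly at high levels.

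Without paste day 15 replicate 1, the twin of paste day 5 replicate 1, 185 features passed, 3.16% of those tested, with 83 higher and 102 lower. Of these 185, 183 (98.9%) were also among the 354 calls of the full comparison, of which they made up 51.7%. All 354 features kept the sign of their change, as did 5670 of all 5856 tested features. For the 354 this was likely in advance from their call in the full comparison, so it is no test. With both twins kept at weight 0.5 each the count was 400, and without either of them it was 139, with 49 higher and 90 lower. With 1 value per treatment and replicate number, averaged over the days, which leaves 4 paste and 4 control values, 58 features passed, 29 in each direction, and 53 of them were among the 354. With the number as a block with an estimated correlation of 0.0244 between the days, 326 passed. That correlation is 1 value for both arms and describes neither the controls alone nor the near-identical pair. Deviations of same-numbered libraries correlated at 0.245 to 0.559 in controls, at 0.577 in paste replicate 1 and at -0.311 to -0.201 in paste replicates 2 to 4. The averaged fit and the block fit were added after seeing the data.

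The count changed with the library left out, in both arms. Leaving out 1 library in turn gave 116 to 781 calls, with fewer than 354 in 13 of 16 cases. The number of features at an unadjusted p below 0.05 moved less, from 1364 to 1922, against 1601 with all 16 libraries. Without 1 paste library the count was 159 for day 5 replicate 2, 152 for day 5 replicate 3, 225 for day 15 replicate 3 and 781 for day 15 replicate 2. Without 1 control library it was 188, 216, 116 and 151 for day 5 replicates 1 to 4 and 181 and 236 for day 15 replicates 3 and 4. The other 6 fits gave 185 to 443. Of the 354 features, 108 were called in all 16 of these fits, 47 higher and 61 lower, and 207 in at least 8 of them. The 47 had a median log2 change of 2.35 and the 61 a median of -1.66. Without paste day 15 replicates 1 and 3, 75 features passed, and without these and paste day 5 replicate 1, 40 passed.

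Each library was then read against a comparison in which it took no part. For the features called without that library, the value in it was set against the midpoint between the paste and control means of its day, computed from the other libraries. In the paste libraries a median of 78.4% of these features lay on the paste side, against 19.6% in the control libraries. Paste day 5 replicates 1 to 4 had 71.3%, 86.8%, 85.5% and 60.4% on the paste side, and paste day 15 replicates 1 to 4 had 86.5%, 20.7%, 90.2% and 53.0%. Control day 5 replicates 1 to 4 had 19.7%, 19.9%, 7.76% and 9.93%, and control day 15 replicates 1 to 4 had 28.2%, 49.8%, 13.8% and 19.5%. The arms thus overlapped through paste day 15 replicate 2, which lay on the control side for most features, and control day 15 replicate 2, which was split nearly evenly. For paste replicate 1 of either day the twin remained in the fit, so its share is not independent of it. Left-out controls likewise kept the same-numbered control of the other day in the fit, so their shares may not be independent either.

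**Figure D3:**
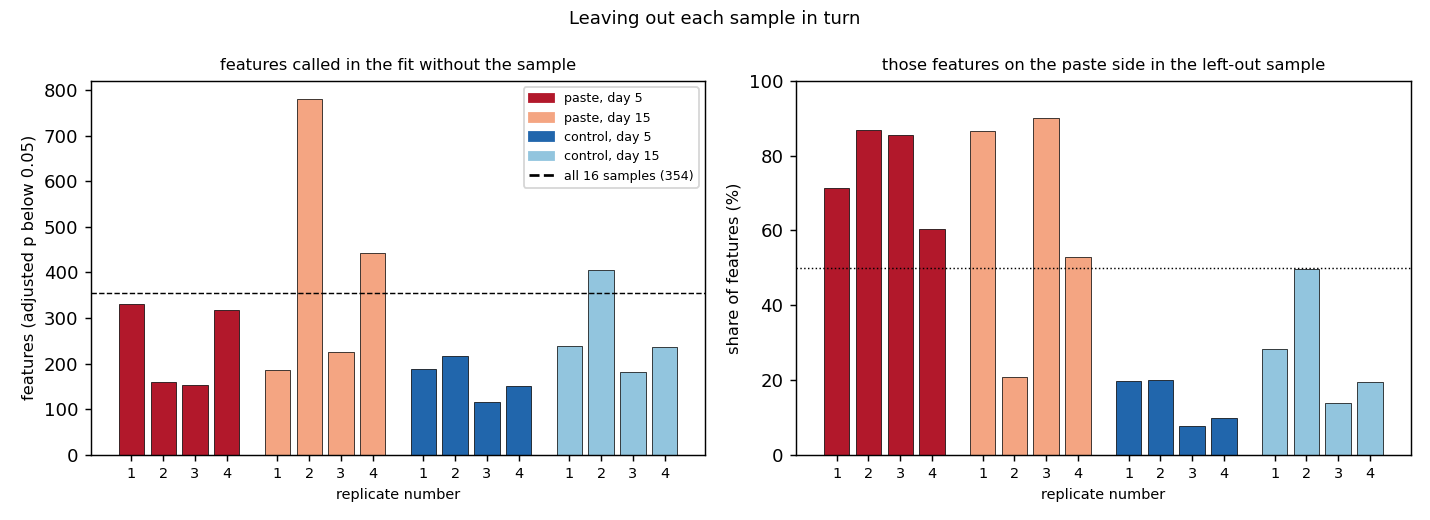
Left, number of features called in the fit without a library (bars from 0; the dashed line marks the 354 of all 16 libraries); right, share of those features (%) that lay on the paste side in the library left out, with a dotted line at 50%. Bars are single libraries, coloured by treatment and day; paste day 15 replicate 2 gives 781 calls when left out and has 20.7% on the paste side.

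The side of the control mean of the day was a weaker divide, since most left-out control libraries also had over 50% of features on the called side. Of the features called higher, 66.0% to 98.8% lay above that mean in left-out paste libraries and 43.2% to 86.4% in left-out control libraries. Of those called lower, 61.5% to 99.0% lay below it in paste libraries and 43.1% to 75.2% in control libraries. Paste day 15 replicate 2 gave the lowest paste share in both directions, 66.0% and 61.5%, and was below control day 15 replicate 2, at 86.4% and 71.5%. In paste day 15 replicate 2 the median change from the control mean was 0.19 on the log2 scale for the 376 features called higher without it and -0.105 for the 405 called lower. Among all left-out libraries, paste day 15 replicate 3 had the largest median for the higher features, 2.38, and paste day 5 replicate 3 the most negative for the lower features, -1.81.

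The called features took a changed share of the whole library. The 171 higher features made up 5.67% ± 2.86 of the total value with paste and 1.63% ± 0.267 in controls (SD, n = 8 each). The lowest paste library, day 15 replicate 2 with 2.26%, stood just above the highest control library, day 15 replicate 2 with 2.19%. The highest paste library, day 15 replicate 3, reached 11.3%. The 183 lower features made up 4.51% ± 1.21 with paste and 8.55% ± 0.934 in controls (SD, n = 8 each), with 2.48% to 6.45% in paste libraries and 7.42% to 9.80% in control libraries. These features were chosen on this comparison, so the shares describe the size of the difference and are no test of it.

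**Figure D4:**
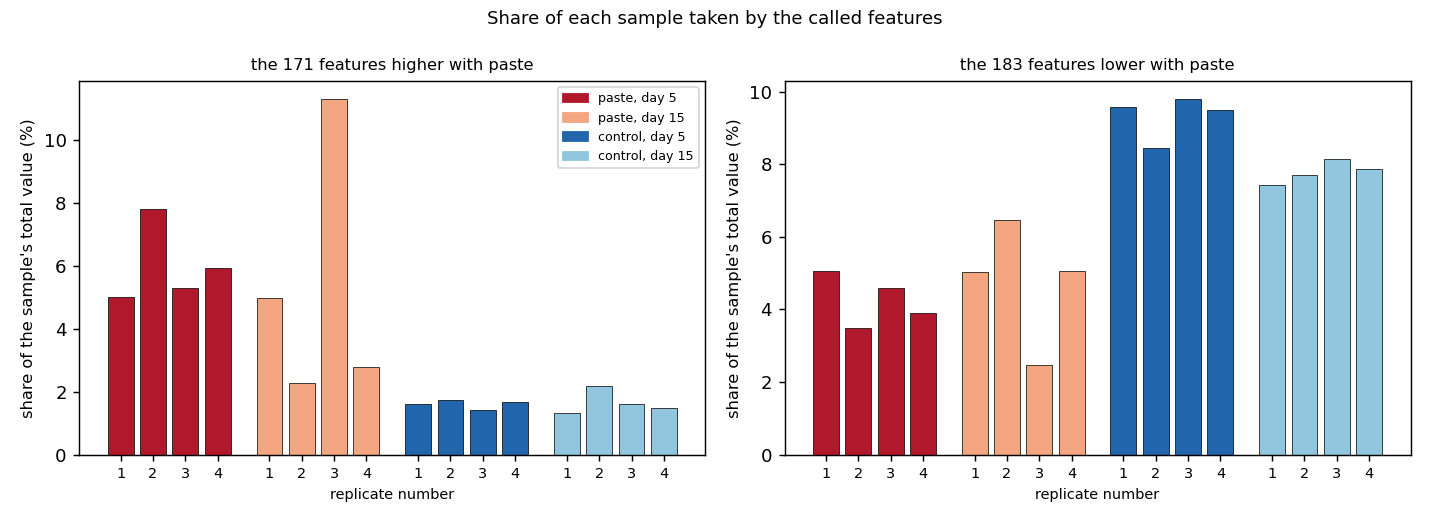
Share of each library's total value (%) taken by the features called higher (left) and lower (right) with paste; bars start at 0, and each is 1 library, coloured by treatment and day, with its replicate number below. The higher features take 2.26% to 11.3% with paste and 1.31% to 2.19% in controls, the lower features 2.48% to 6.45% with paste and 7.42% to 9.80% in controls.

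No difference between the arms was found in 4 measures of a library as a whole. They do not single out the called features, and rises and falls side by side need not move them, so they cannot test the shift. The number of features above 0 averaged 6644 ± 209 with paste and 6721 ± 131 in controls (SD, n = 8 each; exact permutation test within days, two-sided, adjusted p = 0.836). The 10 most abundant features of a library took 12.5% ± 2.35 of its value with paste and 14.02% ± 3.82 in controls (SD, n = 8 each; exact permutation test, adjusted p = 0.836), and the 100 most abundant took 35.3% ± 4.80 and 35.9% ± 3.74 (SD, n = 8 each; exact permutation test, adjusted p = 0.844). Estimated fragments averaged 4579838 ± 453787 with paste and 4524250 ± 574778 in controls (SD, n = 8 each; exact permutation test, adjusted p = 0.844). The p-values were adjusted over these 4 measures, each of which could have reached 0.000408 before adjustment. None of the 4 differed by more than the spread between libraries.

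Paste libraries varied more among themselves than controls. The SD of the log2 values within a treatment and day had a median of 0.651 over features in the paste arm and of 0.438 in the control arm, and it was larger with paste in 4371 of 5856 features, 74.6%. By group the median was 0.554 with paste at day 5 and 0.654 with paste at day 15, against 0.376 and 0.441 in the controls of those days. Paste day 15 replicate 3 lay farthest from the mean of the rest of its group. Its root mean square log2 distance was 1.97, against 0.791 to 1.38 in all other libraries. The spread without it was not computed. Among the 354 called features the paste arm had the larger SD in 255, 72.0%, close to the share over all features. Only counts and medians are given here, since features of the same libraries are not independent.

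Calls were more frequent among abundant features. Features were ordered by their mean value over all 16 libraries and cut into 4 sets of 1464. In the highest set, with means from 620 upwards, 128 were called (8.74%), 50 higher and 78 lower, with a median change of 0.94 on the log2 scale regardless of sign. In the lowest set, with means up to 41.7, 51 were called (3.48%), 21 higher and 30 lower, with a median change of 2.41. The standard error of the log2 change had a median of 0.193 in the highest set and 0.487 in the lowest. Of the PITA features 255 of 4004 were called (6.37%), 108 higher and 147 lower. Of the PITAhm features 65 of 1363 were called (4.77%), 41 higher and 24 lower, and of those with a transcript name 34 of 489 (6.95%), 22 higher and 12 lower.

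Some features were seen at the tested level in 1 arm alone. There were 37 features at 10 or above in 4 or more paste libraries and below 10 in every control, of which 12 were called higher. The reverse held for 27 features, of which 5 were called lower. None of these features reached 10 in all 8 libraries of 1 arm, and none was at 0 in every library of the other arm. Over all tested features, 2.92% were called higher and 3.12% lower. Since the features seen in 1 arm alone passed the filter through that arm, their direction was set by it. Their calls are therefore not comparable with those shares.

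In 36 features the values of the 8 paste libraries and the 8 control libraries did not overlap. In 20 of them (0.342% of features tested) all paste libraries were higher, in 16 (0.273%) all were lower, and all 36 were among the calls. Of these, 25 kept their call in each of the 16 fits without 1 library. With a mean value of at least 50 and a call that held without paste day 15 replicate 1 there were 28, 15 higher and 13 lower. The 15 changed by 1.32-fold to 49.8-fold, 8 of them by less than 2-fold, and the 13 by 1.39-fold to 45.7-fold, 6 of them by less than 2-fold. The 2 largest changes in each direction are described in full, as no identifier could be given a name.

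PITA_000020711 had the largest rise of these. With paste its normalized fragment count was 2196, 3345, 799 and 5635 in day 5 replicates 1 to 4, and 1986, 384, 9003 and 343 in day 15 replicates 1 to 4. In controls it was 42.8, 61.9, 109.7 and 58.3 at day 5, and 10.9, 162.8, 0 and 58.0 at day 15. All paste libraries lay above all controls, by the narrowest margin at day 15, where paste replicates 2 and 4 were lowest and control replicate 2 was highest. It averaged 2961 ± 3012 with paste and 63.1 ± 52.5 in controls (SD, n = 8 each). The log2 change was 5.64 with an SE of 0.92 (limma adjusted p = 0.00526). Without paste day 15 replicate 1 the log2 change was 5.50 (limma adjusted p = 0.0138).

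PITAhm_002677 was the most abundant of the features named here when paste was given. With paste its normalized fragment count was 4648, 18852, 7948 and 20312 in day 5 replicates 1 to 4, and 4535, 638.4, 36758 and 776.5 in day 15 replicates 1 to 4. In controls it was 208.5, 432.1, 205.6 and 142.8 at day 5, and 35.8, 638.3, 17.7 and 136.1 at day 15. At day 5 the groups were far apart, while at day 15 paste replicate 2 and control replicate 2 were level, closer than the worth of 1 fragment in those libraries, so its lack of overlap rests on the scaling. It averaged 11808 ± 12592 with paste and 227 ± 209.7 in controls (SD, n = 8 each). The log2 change was 5.34 with an SE of 0.83 (limma adjusted p = 0.00446). Without paste day 15 replicate 1 the log2 change was 5.27 (limma adjusted p = 0.0136).

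PITA_000058385 had the largest fall of these. With paste its normalized fragment count was 32.8, 40.8, 118.9 and 44.1 in day 5 replicates 1 to 4, and 27.2, 1355, 38.6 and 272.6 in day 15 replicates 1 to 4. In controls it was 5263, 3871, 14677 and 6675 at day 5, and 1957, 2251, 4944 and 1382 at day 15. Paste day 15 replicate 2 lay just under the lowest control, day 15 replicate 4, and the other paste libraries were well below it. It averaged 241 ± 457 with paste and 5127 ± 4269 in controls (SD, n = 8 each). The log2 change was -5.51 with an SE of 0.76 (limma adjusted p = 0.00438). Without paste day 15 replicate 1 the log2 change was -5.27 (limma adjusted p = 0.00853).

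The second largest fall of these was that of a feature with a transcript name that starts with 5A_I15_VO_L_1_T_27897. With paste its normalized fragment count was 5.18, 2.40, 8.33 and 2.85 in day 5 replicates 1 to 4, and 9.07, 4.99, 0 and 16.5 in day 15 replicates 1 to 4. In controls it was 271, 74.8, 180 and 139 at day 5, and 210, 38.1, 48.9 and 106 at day 15. All paste libraries were below all controls, with paste day 15 replicate 4 the highest paste library and control day 15 replicate 2 the lowest control. It averaged 6.17 ± 5.15 with paste and 133 ± 82.3 in controls (SD, n = 8 each). The log2 change was -4.34 with an SE of 0.55 (limma adjusted p = 0.00256). Without paste day 15 replicate 1 the log2 change was -4.51 (limma adjusted p = 0.00368).

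**Figure D5:**
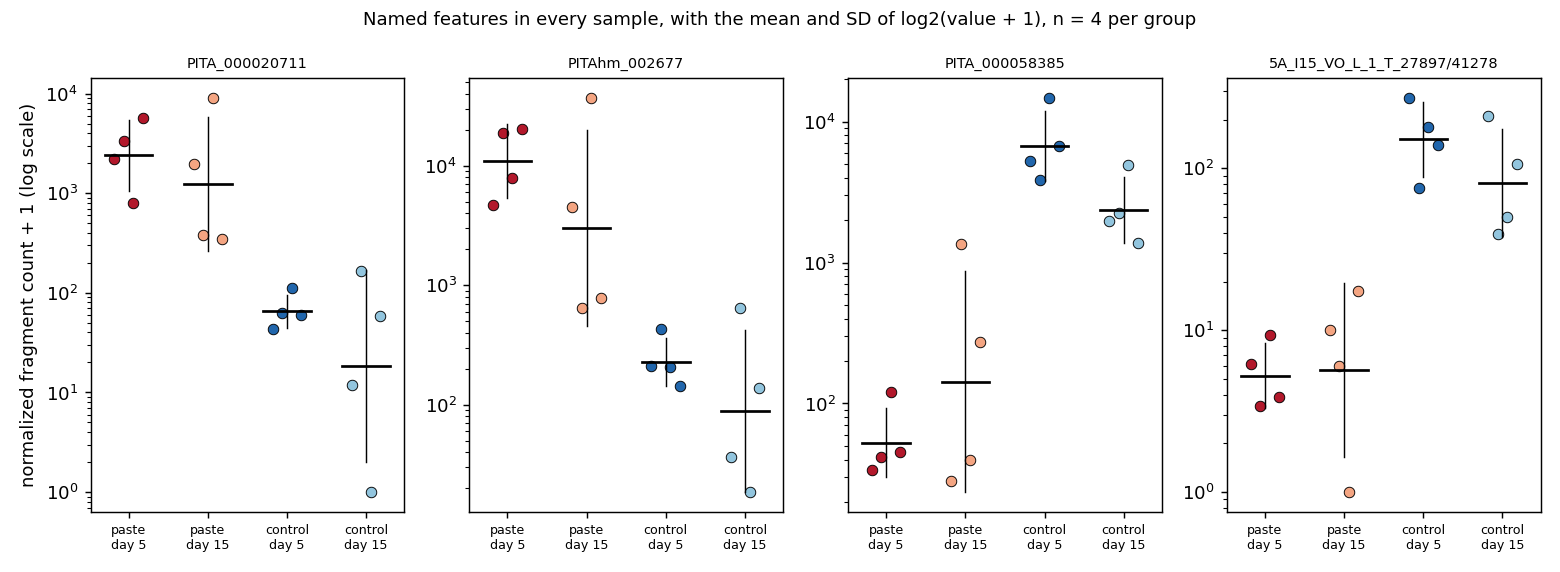
Normalized fragment count plus 1 (y, log scale) of the 4 named features in each library, by treatment and day (x); points are libraries, thick lines the mean and thin lines the SD of log2(value + 1), n = 4 per group. The 8 paste libraries lie above the 8 controls in the left pair of panels and below them in the right pair.

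An exact permutation test that exchanged treatments within each day gave p = 0.000408, two-sided, for each of these 4 features, the smallest p that its 4900 assignments allow. They were chosen for their change, so this p describes them and is no further evidence. All 4 kept their call in each of the 16 fits without 1 library, with log2 changes of 4.96 to 6.09 for PITA_000020711, 4.80 to 5.80 for PITAhm_002677, -6.127 to -5.225 for PITA_000058385 and -4.632 to -3.996 for the transcript-named feature. The rule that named them already required the call without paste day 15 replicate 1, so these fits also describe them and are no further evidence.

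Both days entered the pooled result with the same sign. All 354 called features had estimates of the same sign at day 5 and day 15, as did 78.3% of all tested features. Among the 171 higher features the log2 change had its median at 1.65 for day 5 and 1.20 for day 15, and among the 183 lower features at -1.33 and -1.03. The change was the larger at day 5 in 116 of the 171 and 143 of the 183. These values follow in part from choosing features on the mean of both days. The estimates of the 2 days are also not independent, for called and other features alike. The near-identical libraries stand in both paste groups, and same-numbered controls were alike over the days. Signs by day without the pair were not computed. Tested by itself, the day 5 comparison called 37 features, 35 of which were among the 354, and the day 15 comparison called 0 (limma, with 539 at an unadjusted p below 0.05). PITA_000020711 changed by 5.201 at day 5 (limma adjusted p = 0.103) and by 6.07 at day 15 (limma adjusted p = 0.285), and PITAhm_002677 by 5.58 (limma adjusted p = 0.0510) and 5.10 (limma adjusted p = 0.285). Neither passed at a single day. PITA_000058385 changed by -6.99 at day 5 (limma adjusted p = 0.00669) and by -4.04 at day 15 (limma adjusted p = 0.285), and the transcript-named feature by -4.85 (limma adjusted p = 0.0157) and -3.84 (limma adjusted p = 0.268).

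Whether paste acted differently at day 15 than at day 5 was tested in a fit of the 4 group means, since pooling assumes that 1 effect serves both. No feature passed (limma, 0 of 5856), and 62 had an unadjusted p below 0.05. That is less than a share of 0.05, which p-values reach on average where nothing differs. Without paste day 15 replicate 3 the number was 224. The fit took the days as independent, although some libraries were alike over the days. The 0 calls thus do not show that 1 effect serves both days. For PITA_000020711 the effect at day 15 minus that at day 5 was 0.87 (SE 1.89), for PITAhm_002677 -0.48 (SE 1.71), for PITA_000058385 2.95 (SE 1.36) and for the transcript-named feature 1.01 (SE 1.11), each at a limma adjusted p near 1. Standard errors above 1 on the log2 scale leave little precision on a change between the days in these 4 features.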

How the data were processed

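RNA was sequenced from 16 libraries of slash pine vascular cambium, 8 with paste and 8 controls. Per the labels' protocols, an rRNA depletion kit was used and reads were single-end from a HiSeq. Cufflinks 2.1.1, HISAT2 2.0.4, Trimmomatic 0.32 and FastQC were run, per the submitters' processing notes. Genome build, annotation, strand setting and multi-mapping rules were not given in the sources used here, so features with near-identical copies or overlaps may share fragments. The deposited values are a normalized signal per feature, an estimated fragment count over a library size factor, per the file headers and the values. In each library 96.6% to 98.0% of values above 0 and up to 20.5 fragments lay within 0.1 of a whole number of fragments. The rest are fractions, so the planned count models were not run.

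Testing covered features at 10 or above in 4 or more libraries, on log2(value + 1), a scale that understates changes of low features. The model had treatment and day as terms (limma 3.58.1 in R 4.3.3, trend and robust variance, 13 residual degrees of freedom), with two-sided p-values, adjusted by Benjamini-Hochberg over 5856 features, and a threshold of 0.05. The fit was tested on simulated data. Single values were tested by exact permutation within days (Python 3.11.15). Named features are the 2 largest rises and falls among called features without overlap, with a mean of at least 50 and a call without paste day 15 replicate 1. Gene lists by description could not be run. Members, lists and rules were chosen with earlier results of these data known. Alternatives were other weights, scalings, pseudocounts, filters, blocks and left-out libraries.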

Additional observations from a re-analysis of the deposited data

Results flagged for a closer look

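Outlying values were sought in 32 sets of 4 libraries (4 whole-library measures and 4 named features, in each of the 4 groups). In these, 5 values stood far from the other 3 of their group. With normally distributed values about 1 set in 20 would do so by chance. The rule was used on values not taken to log2, where levels of a feature need not be normal, so the number flagged is no test. In replicate 3 of paste at day 15 the level of PITAhm_002677 was 36758, and 638.4 to 4535 in the rest of that group. The 100 most abundant features took 40.6% of the value in the same library, against 31.1% to 32.7%. In paste day 5 replicate 3 the level of PITA_000058385 was 118.9, and 32.8 to 44.1 in the rest of that group. The 100 most abundant features took 39.6% in control day 5 replicate 3, against 33.4% to 34.3%. Control day 15 replicate 1 held an estimated 3323971 fragments, against 4548003 to 4798513.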

How the results depend on the processing

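The pooled comparison called 354 features. The count fell to 139 without both near-identical libraries, 75 without paste day 15 replicates 1 and 3, 40 without those 3, 37 for day 5 alone and 0 for day 15 alone, and was 725 with library quality weights. Leaving out 1 library gave 116 to 781. The cause of these changes was not tested. Other scalings, pseudocounts, filters, no day term, no trend or robust variance and weight 0.5 for the near-identical pair kept it within 1.5 times. Replicate numbers did not pair paste with control libraries (8 correlations of -0.378 to 0.13). The replicate block gave 30 calls within days, 234 shared over the days and 58 with same-numbered libraries averaged over the days. A block with 1 correlation over the days, estimated for both arms together, gave 326, and leaving out features with low-data status gave 346. These 2, the averaged fit and the fit without 3 libraries were chosen after seeing the data. PITA_000020711 and PITAhm_002677 lost their call at each day alone and in the block within days, the other 2 named features at day 15 alone, and none changed sign. The test between days called 0 features in all 18 alternatives, which does not show that the paste effect was the same on both days. When 1 library was left out, the difference in fragments (55588) ranged from -116343 to 165225, that in features above 0 (-76.8) from -110.3 to -20.2, and those in the share of the 10 (-1.50 percentage points) and 100 (-0.55) most abundant features from -2.07 to -0.228 and from -1.61 to 0.63. No measure passed then (smallest adjusted p = 0.615). The planned count models and gene lists were not run. Standard errors were larger in the least abundant features, and the part of depth in this was not tested.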
